A study of Mus musculus with 3 samples.

Results

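C1qa, C1qb, C1qc, Csf1r, Fcer1g, Tyrobp, Pf4 and Itga2b are 8 genes used as marks of macrophages (the first 6) and of megakaryocytes and platelets (Pf4 and Itga2b). They were chosen by name from the 15122 genes of the deposited matrix, and a row was found for each of the 8 by its Ensembl gene identifier. Their levels were followed through the 5 deposited cell clusters of the mouse forelimb bud, and cell by cell in cluster 3, where most of their molecules were counted.

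Macrophages of the early embryo come from blood precursors of the yolk sac and enter the tissues before definitive blood cells are made. They depend on the receptor tyrosine kinase encoded by Csf1r, secrete the complement recognition protein C1q, and signal through small adaptor proteins that carry an immunoreceptor tyrosine-based activation motif (ITAM). Megakaryocytes, the large cells that shed platelets, load their granules with the chemokine platelet factor 4 (Pf4) and carry the fibrinogen receptor, whose alpha chain is integrin alpha IIb (Itga2b, CD41). Integrin alpha IIb is also present on early blood progenitors, so that it is not a mark of megakaryocytes alone.

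Forelimbs of wild-type embryos were dissociated with trypsin and run on the droplet-based 10x Genomics 3′ version 2 system, in which each captured molecule is tagged with a unique molecular identifier (UMI) and counted once. There were 3 libraries, 1 for each group: B6_E10.5 (strain c57bl6.J at stage E10.5), 129_E9.5 (strain 129S6.sv at stage E9.5) and B6_E9.5 (strain c57bl6.J at stage E9.5). All 3 were wild type, and the number of embryos in each is not given in the labels. The study's question, as its title gives it, concerned a long noncoding RNA and engrailed-1 in limb malformation, not blood cells.

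The B6_E10.5, 129_E9.5 and B6_E9.5 libraries held 18957, 12220 and 12773 cells, with between 93029510 and 124388358 UMIs each. Cluster 3 took 707, 458 and 850 of these cells, with a median of 6467, 7383 and 7138.5 UMIs per cell. Of its 10 genes of highest fold over the other clusters, 5 were endothelial markers (Cldn5, Emcn, Cdh5, Esam and Flt1). Pf4 nevertheless led that order, and 4 macrophage markers (C1qb, C1qc, Tyrobp and Lyz2) stood among the first 50, so the cluster is called by its number here. Of the cells in cluster 3, 25, 22 and 35 carried a barcode that also occurred in another library. With 1 library per group no difference between groups has a replicate check, and no test between groups was made.

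C1qa, C1qb and C1qc lie side by side on chromosome 4, all on the minus strand, in the GENCODE M21 annotation of the mouse build GRCm38. C1qb spans 136880129 to 136886187, C1qc spans 136889804 to 136893065 and C1qa spans 136895917 to 136898803, with 3617 bases between C1qb and C1qc and 2852 bases between C1qc and C1qa. Pf4 lies on chromosome 5 at 90772435 to 90773383 on the plus strand, 2372 bases from Ppbp, which encodes another platelet granule chemokine. Itga2b lies on chromosome 11 at 102453297 to 102470122 on the minus strand.

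The sequences upstream of C1qb and C1qc, which were detected together, and of Pf4 and Itga2b, which were detected together, are shown because Pf4 also occurred with C1qb in other cells. Each is the 250 bases before RefSeq's start of the gene in GRCm38.p6, on the gene's own strand, at chr4:136886201-136886450 for C1qb, chr4:136892915-136893164 for C1qc, chr5:90772185-90772434 for Pf4 and chr11:102469884-102470133 for Itga2b. GENCODE M21 starts C1qc and Itga2b further upstream than RefSeq, so that 151 of the 250 bases for C1qc and 239 for Itga2b lie inside the GENCODE gene, and 0 for C1qb and Pf4. Capitals mark GAGGAA or its reverse complement TTCCTC, the core that the macrophage factor PU.1 (encoded by Spi1) is known to bind.
C1qb: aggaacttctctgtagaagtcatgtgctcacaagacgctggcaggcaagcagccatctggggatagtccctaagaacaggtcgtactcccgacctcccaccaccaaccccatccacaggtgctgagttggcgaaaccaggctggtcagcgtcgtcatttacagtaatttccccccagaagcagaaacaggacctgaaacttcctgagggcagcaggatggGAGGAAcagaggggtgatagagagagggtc
C1qc: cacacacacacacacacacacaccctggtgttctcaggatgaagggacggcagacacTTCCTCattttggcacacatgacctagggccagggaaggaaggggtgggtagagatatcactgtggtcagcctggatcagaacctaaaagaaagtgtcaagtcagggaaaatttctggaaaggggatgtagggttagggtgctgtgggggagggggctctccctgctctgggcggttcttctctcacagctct
Pf4: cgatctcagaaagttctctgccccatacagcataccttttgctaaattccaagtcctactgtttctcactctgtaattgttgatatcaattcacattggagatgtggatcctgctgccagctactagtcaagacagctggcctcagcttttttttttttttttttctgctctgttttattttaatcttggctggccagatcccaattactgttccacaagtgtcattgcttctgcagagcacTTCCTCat
Itga2b: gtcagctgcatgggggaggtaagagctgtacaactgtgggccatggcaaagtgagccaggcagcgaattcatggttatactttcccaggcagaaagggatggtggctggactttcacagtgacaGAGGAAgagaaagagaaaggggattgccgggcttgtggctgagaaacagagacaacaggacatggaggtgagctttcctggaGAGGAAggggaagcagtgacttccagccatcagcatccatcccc
GAGGAA, read on both strands, occurred 1 time in the C1qb, C1qc and Pf4 windows, starting 30, 193 and 8 bases before the RefSeq start, and 2 times in the Itga2b window, 126 and 44 bases before it. Of all 32851 promoter windows of the same length, 23.3% held it. GATAA, the core bound by GATA factors such as the megakaryocyte factor encoded by Gata1, was in none of these 4 windows and in 22.6% of all windows. Promoter windows were matched for 5 of the 8 genes, the fifth being Fcer1g, whose window held neither motif.

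Tyrobp lies on chromosome 7 at 30413760 to 30417585 on the plus strand. Fcer1g lies on chromosome 1 at 171229572 to 171234365 on the minus strand. Csf1r lies on chromosome 18 at 61100598 to 61132149 on the plus strand and overlaps the end of Hmgxb3 on the minus strand. Levels are given as CPM, the UMIs of a gene in every 1000000 UMIs of the same cells. Hmgxb3 had 11.8, 12.4 and 15.5 CPM in cluster 3 of B6_E10.5, 129_E9.5 and B6_E9.5, a nearly even level that Csf1r did not share.

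The 3 chains of C1q, which together form the recognition part of the classical complement pathway, were counted in B6_E10.5 alone. C1qb had 336.8 CPM in cluster 3 of B6_E10.5, with an exact Poisson 95% interval of 321 to 353, from 1738 UMIs in 110 cells. C1qc had 200.8 CPM from 1036 UMIs in 100 cells of the same cluster. C1qa had 96.9 CPM from 500 UMIs in 90 cells. All 3 had 0 UMIs in every cluster of 129_E9.5 and of B6_E9.5. In cluster 3 that allows up to 0.811 CPM in 129_E9.5 and 0.364 CPM in B6_E9.5, by a limit of 3 UMIs, or a share of up to 0.655% of 458 cells and 0.353% of 850 cells with a UMI. Such intervals and limits account for counting error and for nothing else. In B6_E10.5, C1qb was found in 15.6% of the cells of cluster 3 (median depth 6467 UMIs per cell). Cluster 0, whose leading genes are those of limb mesenchyme, held 44 C1qb UMIs in 33 of its 15325 cells (0.215% of cells, 0.485 CPM, median depth 5422 UMIs per cell).

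Csf1r, the receptor for the macrophage growth factor CSF1, had 61.0 CPM in cluster 3 of B6_E10.5, 0 UMIs in 129_E9.5 and 2.18 CPM in B6_E9.5 (exact Poisson 95% interval 1.29 to 3.45). The molecules came from 107 cells of B6_E10.5 and from 7 cells of B6_E9.5. Of the 6 macrophage genes it had the fewest molecules per positive cell of B6_E10.5, at 2.94 UMIs, beside 2.57 in B6_E9.5. When each cell was thinned to 2000 UMIs and shallower cells (149, 45 and 299 in the 3 libraries) were left out, Csf1r was found in 53 of 558 cells of B6_E10.5 and in 3 of 551 cells of B6_E9.5 (0.544%). The unthinned shares were 15.1% in B6_E10.5 and 0.824% in B6_E9.5.

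Tyrobp (DAP12) and Fcer1g (the Fc receptor gamma chain) encode ITAM adaptors that pair with activating receptors. Tyrobp had 286.4 CPM in cluster 3 of B6_E10.5, 0 UMIs in 129_E9.5 and 11.3 CPM in B6_E9.5, from 143, 0 and 7 cells. Its UMIs per positive cell were 10.3 in B6_E10.5 and 13.3 in B6_E9.5. The 102 cells with Tyrobp and Csf1r in B6_E10.5 had a median depth of 7851 UMIs and 1504 CPM of Tyrobp, while the 6 such cells in B6_E9.5 were deeper, with 18583.5 UMIs, and had 780 CPM. Fcer1g was the member of the first 6 that had UMIs in cluster 3 of all 3 libraries. It had 258.3 CPM in B6_E10.5, 19.7 CPM in 129_E9.5 and 20.4 CPM in B6_E9.5, from 174, 21 and 37 cells.

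Pf4 had the highest level of the 8 genes in cluster 3 of every library, at 1068.4 CPM in B6_E10.5, 249.4 CPM in 129_E9.5 and 164.9 CPM in B6_E9.5. It came from few cells: 68 of 707, 10 of 458 and 10 of 850. Itga2b had 44.2, 14.9 and 11.5 CPM in the same clusters, from 52, 18 and 44 cells. Pf4 thus averaged 81.1, 92.2 and 136 UMIs per positive cell and Itga2b 4.38, 3.06 and 2.16. In cluster 3 of B6_E10.5 the UMI levels stood in the order Pf4, C1qb, Tyrobp, Fcer1g, C1qc, C1qa, Csf1r, Itga2b, and the Poisson intervals of these neighbours did not overlap except for Tyrobp (272 to 301) beside Fcer1g (245 to 273). Reads from a 3′ kit come from transcript ends, so these UMI counts are not divided by gene length.

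**Figure D1:**
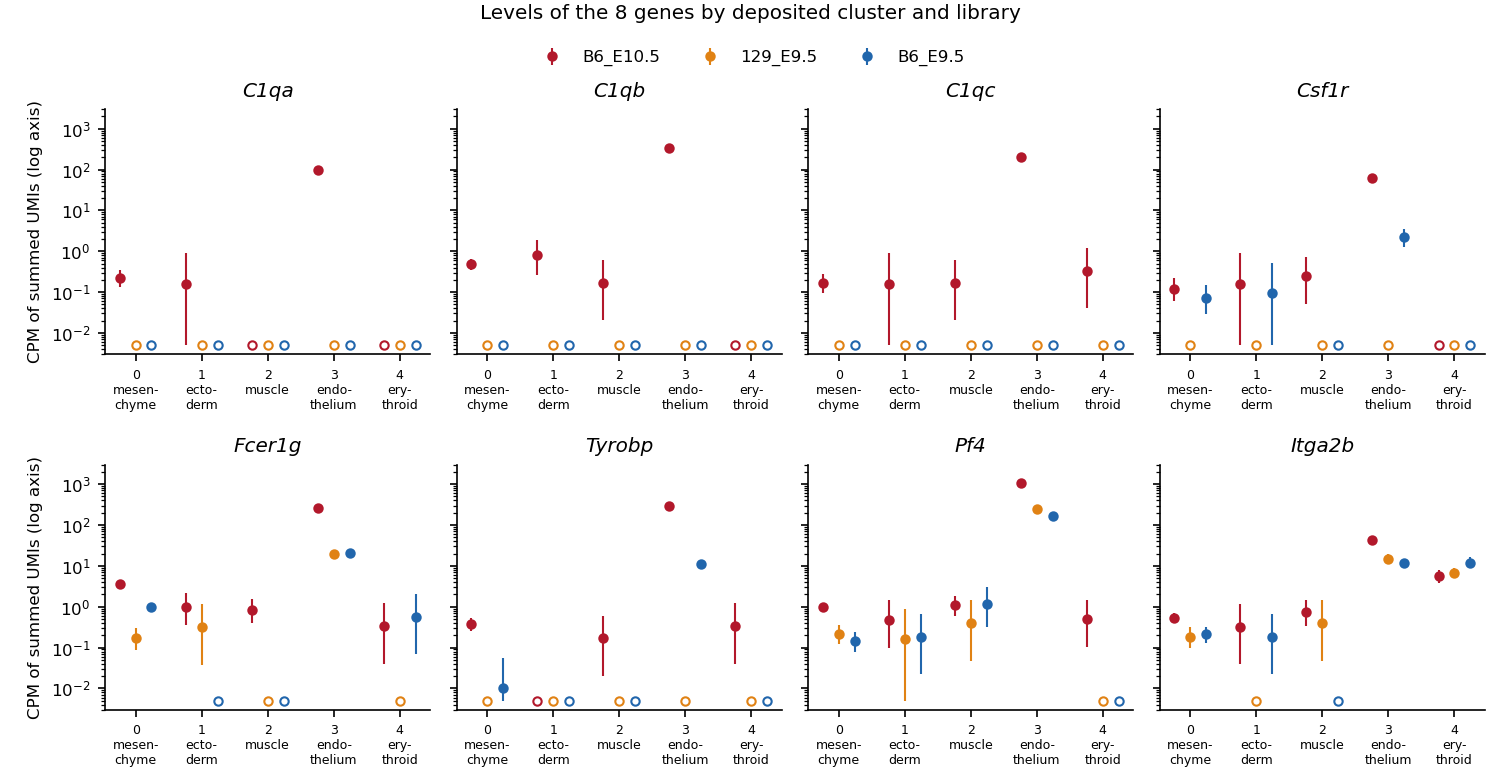
CPM of each of the 8 genes (log axis) in the 5 deposited clusters of B6_E10.5, 129_E9.5 and B6_E9.5; bars are exact Poisson 95% intervals, and open circles at the bottom stand for 0 UMIs. Cluster 3 holds the highest level of each gene in B6_E10.5, and the 3 C1q genes have no value above 0 in either E9.5 library.

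Cluster 3 held most molecules of each gene in B6_E10.5, from 79.6% of the library's Fcer1g UMIs to 98.1% of its Pf4 and C1qc UMIs, Itga2b aside. Itga2b stood lower, with 71.0% of its UMIs in cluster 3 of B6_E10.5, 44.7% in 129_E9.5 and 59.4% in B6_E9.5. Outside cluster 3 its level was highest in cluster 4, whose cells carry globin genes, at 5.55 CPM in B6_E10.5, 6.86 CPM in 129_E9.5 and 12.0 CPM in B6_E9.5. In B6_E9.5 that was 104% of its level in cluster 3. The cells of cluster 4 with an Itga2b UMI numbered 33, 51 and 34, with at most 2 UMIs each, and together they held 1, 0 and 0 Pf4 UMIs.

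Between stages, each of the 8 genes was higher in cluster 3 of B6_E10.5 than in that of B6_E9.5 by at least 2-fold. The ratio was at least 926-fold for C1qb, 552-fold for C1qc and 266-fold for C1qa, with the count of 0 in B6_E9.5 set to 3 UMIs. With cells of at most 16000 UMIs these bounds were 320, 195 and 92.8, and with UMIs divided by the whole library they were 601, 358 and 173. It was 27.97 for Csf1r (95% interval from the exact conditional binomial 17.4 to 47.8), 25.4 for Tyrobp (20.6 to 31.7) and 12.7 for Fcer1g (10.8 to 15.0). The 2 platelet genes differed less, Pf4 by 6.48 (6.11 to 6.88) and Itga2b by 3.84 (3.01 to 4.93). The Pf4 ratio rested on few cells: in B6_E9.5, 3 cells held 622, 410 and 321 of the 1360 Pf4 UMIs of cluster 3. Its interval does not account for that. The shares of cells with Itga2b were 7.36% (5.54 to 9.53) in B6_E10.5 and 5.18% (3.79 to 6.89) in B6_E9.5, with intervals that overlapped. Over all 10604 genes with at least 20 UMIs in the higher library, 11.1% passed the same 2-fold mark upward and 3.36% passed it downward in B6_E10.5, and the median log2 ratio was 0.02. Cluster 3 was a smaller share of B6_E10.5 (3.73% of cells) than of B6_E9.5 (6.65%), and when UMIs were divided by the whole library in place of cluster 3 the ratios were 4.20 for Pf4, 2.49 for Itga2b, 8.23 for Fcer1g and 16.5 for Tyrobp.

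Lists of genes of these cell types and their pathways, members included, were read by the same rule. They were chosen with earlier results of these data known. A gene can reach 20 UMIs through the library in which it is high, so these counts are a description only and support nothing. Of 32 macrophage markers 30 had a row and 27 of these, the 6 members included, had enough UMIs; 25 were at least 2-fold higher in B6_E10.5, with a median log2 ratio of 5.18 and summed levels of 2617 CPM in B6_E10.5 and 166 CPM in B6_E9.5. Among them the fractalkine receptor gene Cx3cr1 had 317 UMIs against 0 and the actin-binding protein gene Aif1 306 against 0. Cd14, Ms4a7 and Lyve1 had too few, Lyve1 with 0 UMIs in B6_E10.5 and 17 in B6_E9.5. Of 22 megakaryocyte and platelet markers 19 were higher, with a median of 2.25. The exception in direction was Clec1b, which encodes the platelet receptor CLEC-2, with 103 CPM in B6_E10.5 and 246 CPM in B6_E9.5. Of 16 ITAM signalling genes 13 were higher (median 3.20), of 8 complement genes 7 (median 5.65), of 9 genes of the CSF1 receptor pathway 6 (median 2.30), and of 12 platelet integrin and granule genes 9 (median 2.19). These counts partly restate the members. Fcer1g and Tyrobp are in the ITAM list, C1qa, C1qb and C1qc in the complement list, and Csf1r in that of its pathway. Pf4 and Itga2b are in both platelet lists. The lists also share other genes, Spi1 and Itgb3 among them.

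The markers of other cells differed between the same libraries in several lists. None of 12 endothelial markers passed 2-fold in either direction (median −0.28). Of 10 haematopoietic progenitor markers 3 were higher and 4 lower, and of 6 erythroid markers 5 were lower (398 CPM in B6_E10.5 and 1414 CPM in B6_E9.5). Neural crest and Schwann precursor markers were higher in 6 of 6, at 115 CPM in B6_E10.5 and 3.27 CPM in B6_E9.5. The part of these lists in the members' difference was not tested.

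**Figure D2:**
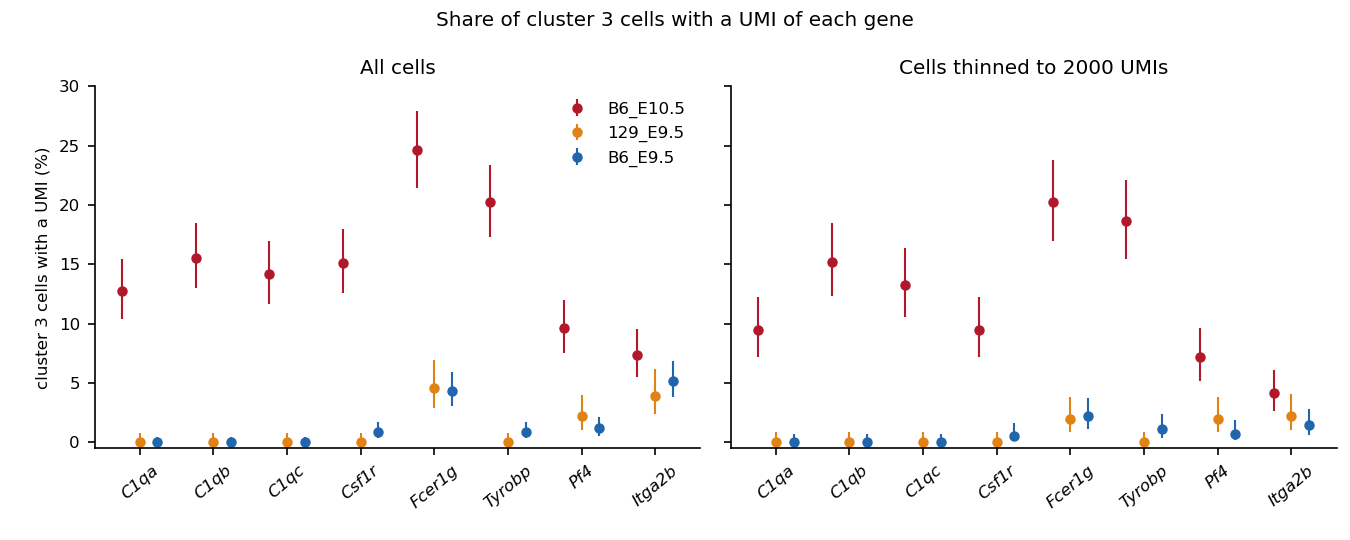
Share of cluster 3 cells with at least 1 UMI of each gene (percent), with exact Clopper-Pearson 95% intervals, in B6_E10.5, 129_E9.5 and B6_E9.5, as counted and after thinning each cell to 2000 UMIs. The shares run to 24.6% of cells in B6_E10.5 for Fcer1g and stay at or below 5.18% in both E9.5 libraries.

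Between strains at E9.5, few of the genes could be compared. Tyrobp had 0 UMIs in 129_E9.5 and 93 in B6_E9.5, a ratio of at most 0.0720. Those 93 UMIs came from 7 of 850 cells (0.824%, Clopper-Pearson 0.332 to 1.69), and 0 of 458 cells in 129_E9.5 has an upper limit of 0.802%, so the shares of cells overlap within counting error. Csf1r had 0 UMIs in 129_E9.5 and 18 in B6_E9.5, under the 20 UMIs needed to be counted. The members at least 2-fold lower in 129_E9.5 were thus 1 of the 4 with enough UMIs, Tyrobp, and none was at least 2-fold higher, where 5.32% and 4.52% of all 10110 genes were. Pf4 had a ratio of 1.51 (1.39 to 1.65), 129_E9.5 over B6_E9.5, but it rested on few cells: without cells whose barcode occurred in another library it was 1.03, with cells of at most 16000 UMIs it was 1.79 (1.59 to 2.02), and with the UMIs of the whole library as the denominator it was 0.906. Itga2b, at 1.29 (0.909 to 1.82), had an interval that spanned 1 and was 0.774 with that denominator. Fcer1g, at 0.970 (0.726 to 1.28), was 0.581 with it. The platelet gene Ppbp, the neighbour of Pf4, had 0 UMIs in 129_E9.5 and 312 in B6_E9.5, and Gp5, a chain of the platelet von Willebrand factor receptor, had 40 and 0. Of these, 311 of the 312 Ppbp UMIs came from 2 cells of B6_E9.5 and all 40 Gp5 UMIs from 6 cells of 129_E9.5.

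The macrophage genes were detected in the same cells. Of the 110 cells of cluster 3 in B6_E10.5 with a C1qb UMI, 100 had C1qc, 85 had C1qa, 104 had Tyrobp, 100 had Fcer1g and 86 had Csf1r. Of the 597 cells without C1qb, 0 had C1qc, 0.838% had C1qa, 6.53% had Tyrobp, 12.4% had Fcer1g and 3.52% had Csf1r. Counting how many of the 6 macrophage genes each cell held, 125 cells of cluster 3 in B6_E10.5 (17.7%) had 3 or more and 68 had all 6. The same count was 0 of 458 cells in 129_E9.5 and 6 of 850 cells in B6_E9.5. Outside cluster 3 of B6_E10.5, 8 cells of cluster 0, 1 of cluster 2 and 1 of cluster 4 had 3 or more.

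Of these genes Fcer1g had the largest share of C1qb-negative cells, and it was also found where Pf4 was. In B6_E10.5, 56 of the 68 Pf4-positive cells had Fcer1g, against 18.5% of Pf4-negative cells. In 129_E9.5 it was 9 of 10, against 2.68%, and in B6_E9.5 4 of 10, against 3.93%. Tyrobp, the other adaptor, was found in 34 of 68 Pf4-positive cells of B6_E10.5 and in 0 of 10 in each E9.5 library.

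C1qb was detected in a larger share of the Pf4-positive than of the Pf4-negative cells of B6_E10.5. Of its 68 Pf4-positive cells, 34 had C1qb, against 11.9% of the Pf4-negative cells. Of its 110 C1qb-positive cells, 30.9% had Pf4, against 5.70% of C1qb-negative cells, at median depths of 6198.5 and 6472 UMIs. The odds ratio was 7.37 (exact conditional 95% interval 4.18 to 13.0), and 3.83 (1.78 to 7.98) with each cell thinned to 2000 UMIs. Pf4 was found in 0.372% of the cells in cluster 0 and in 0.868% of those in cluster 2 of the same library, at median depths of 5422 and 7695.5 UMIs. Neither E9.5 library had a C1qb UMI, so the pair could not be looked at there.

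Pf4 and Itga2b were detected together in every library. In B6_E10.5, 25 of 68 Pf4-positive cells (36.8%) had Itga2b, against 4.23% of Pf4-negative cells, an odds ratio of 13.1 (6.67 to 25.7). In 129_E9.5 it was 7 of 10 against 2.46% (odds ratio 88.0, 17.4 to 598), and in B6_E9.5 4 of 10 against 4.76% (odds ratio 13.2, 2.64 to 58.3). With cells of at most 16000 UMIs, 1 cell of B6_E9.5 held both genes. The odds ratio there was 8.50 (0.164 to 92.7), an interval that spanned 1. The Pf4-positive cells of B6_E9.5 had a median depth of 16579.5 UMIs, against 7039 in the Pf4-negative ones. Asking for at least 2 UMIs of both genes raised the odds ratio in B6_E10.5 to 135. C1qb and Itga2b, by contrast, were found together in 2 cells of B6_E10.5, an odds ratio of 0.203 (0.0236 to 0.793), and no cell of any library had all 3 genes.

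The amount of Pf4 differed between the kinds of cells that had it. In B6_E10.5, the 25 cells with Pf4 and Itga2b had between 4 and 669 Pf4 UMIs each (median 121), and they held 5294 of the 5513 Pf4 UMIs of cluster 3. The 34 cells with Pf4 and C1qb had between 1 and 13 (median 2) and held 109. The other 9 had 1 to 85 (median 1) and held 110. In 129_E9.5 the 7 cells with Itga2b had 27 to 269 Pf4 UMIs (median 134) and held 919 of 922, while the 3 cells without it had 1 each. In B6_E9.5 the 4 cells with Itga2b had 622, 410, 321 and 1 Pf4 UMIs, and the 6 without it had 1 each. Over the UMIs of those cells, Pf4 stood at 19756 CPM with Itga2b in B6_E10.5, 13191 CPM with it in 129_E9.5 and 16921 CPM with it in B6_E9.5, against 390 CPM with C1qb in B6_E10.5.

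**Figure D3:**
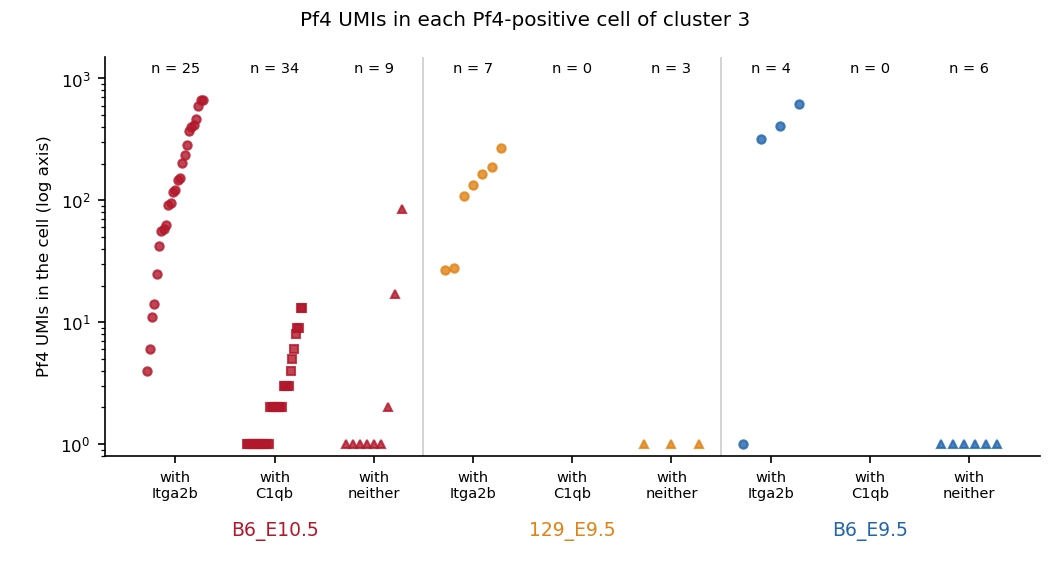
Pf4 UMIs in each Pf4-positive cell of cluster 3 (log axis; 1 point per cell), split by whether the cell also had Itga2b, C1qb or neither, in B6_E10.5, 129_E9.5 and B6_E9.5. In B6_E10.5 the cells with Itga2b run from 4 to 669 UMIs and those with C1qb from 1 to 13.

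The cells with Pf4 and C1qb carried the other macrophage markers and few of the megakaryocyte ones. The macrophage markers other than the 6 members summed to 5994.5 CPM in these 34 cells, with UMIs of 23 of 24, and to 6315 CPM in the 74 cells with C1qb but neither Pf4 nor Itga2b. The megakaryocyte markers other than Pf4 and Itga2b summed to 115 CPM, with UMIs of 3 of 21: Cd9, Plek and Thbs1. Gp9, Itgb3, Ppbp, Gata1, Vwf, Gp5 and Treml1 were at 0 in all 34. Within them C1qb had 2833 CPM, Tyrobp 1472, Fcer1g 1368 and Csf1r 383, beside 2068, 1579, 1250 and 375 CPM in the 74 cells without Pf4. Their depth was 541 to 17172 UMIs per cell (median 7771.5), and no doublet caller was run. The mannose receptor gene Mrc1 was at 315 CPM in the 34 cells and 200 CPM in the 74, and the lysozyme gene Lyz2 at 795 and 1118 CPM.

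The cells with Pf4 and Itga2b carried the megakaryocyte markers and fewer of the macrophage ones. Macrophage markers other than the 6 members summed to 881, 632 and 712 CPM in B6_E10.5, 129_E9.5 and B6_E9.5. UMIs were present for 7, 4 and 5 of those 24 markers. Those sums were above the 548, 128 and 127 CPM of the cells with none of Pf4, C1qb and Itga2b. In B6_E10.5 all 21 megakaryocyte markers had UMIs in the 25 cells and summed to 12912 CPM, while Tyrobp, Csf1r and the C1q genes had 0 UMIs. Itgb3, the beta chain that pairs with integrin alpha IIb, had 1724 CPM there, Gp9 899 and Ppbp 3082. Fcer1g, which in platelets couples to the collagen receptor glycoprotein VI, had 455 CPM, in 19 of the 25 cells. The corresponding cells of the E9.5 libraries also had Fcer1g, at 502 CPM in 7 of 7 cells of 129_E9.5 and 937 CPM in 4 of 4 cells of B6_E9.5. Their megakaryocyte markers summed to 6014 CPM with 14 of 21 in 129_E9.5 and to 14047 CPM with 15 of 21 in B6_E9.5. Ppbp had 0 UMIs in the 7 cells of 129_E9.5 and 311 UMIs in 2 of the 4 cells of B6_E9.5. Endothelial markers summed to 522, 574 and 387 CPM in these cells of B6_E10.5, 129_E9.5 and B6_E9.5, against 3665, 4360 and 3969 CPM in the cells of cluster 3 with none of Pf4, C1qb and Itga2b.

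Itga2b was also found without Pf4 or C1qb, in 25, 11 and 40 cells of B6_E10.5, 129_E9.5 and B6_E9.5. Those cells held 34, 11 and 42 Itga2b UMIs, close to 1 per cell. Their endothelial markers summed to 3687, 4344 and 4052 CPM, near the level of the cells with none of the 3 genes, and their megakaryocyte markers to 509, 371 and 314 CPM. The 40 cells of B6_E9.5 were deep, with a median of 18025 UMIs.

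**Figure D4:**
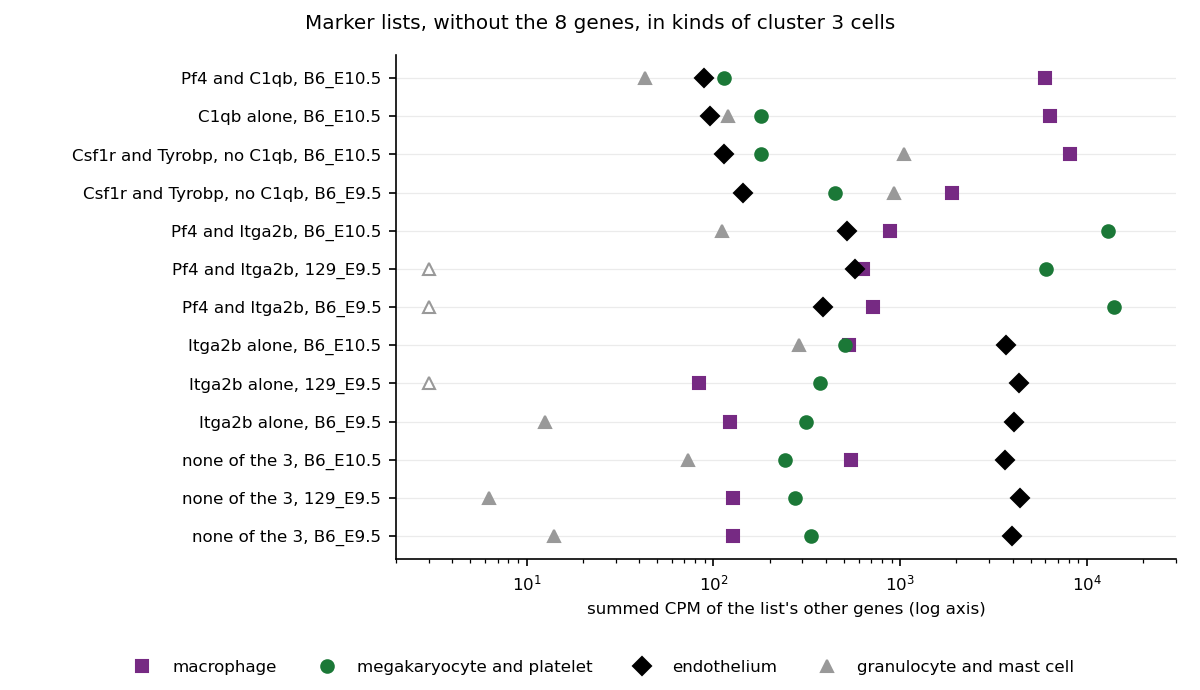
Summed CPM of macrophage, megakaryocyte, endothelial, and granulocyte and mast cell markers (log axis, the 8 genes left out) in cluster 3 cells grouped by which of Pf4, C1qb and Itga2b they held, per library. Further rows show cells with Csf1r and Tyrobp but no C1qb in B6_E10.5 and B6_E9.5, which share cells with other rows. An open symbol at 3 stands for 0. Macrophage markers lead in the cells with C1qb, megakaryocyte markers in those with Pf4 and Itga2b, and endothelial markers in those with Itga2b alone or none of the 3.

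A set of cells with Csf1r and Tyrobp but no C1qb, singled out after its values were seen, had another pattern. It numbered 19 cells in B6_E10.5 and 6 in B6_E9.5. In the 19 cells Csf1r had 212 CPM, Tyrobp 1350 and Fcer1g 920, and in the 6 cells 152, 780 and 547. Prtn3, a serine protease gene of neutrophil and monocyte granules, had 773 CPM in 17 of the 19 cells and 888 CPM in 6 of the 6, against 10.7 CPM in the 34 cells with Pf4 and C1qb. It was not low in all C1qb cells: the 74 with neither Pf4 nor Itga2b had 90.9 CPM, from 40 UMIs in 21 cells. Spi1 had 528 and 332 CPM. In the 6 cells of B6_E9.5 the macrophage genes Cx3cr1, Aif1, Mrc1, Adgre1 and Trem2 had 0 UMIs, and 8 of 24 macrophage markers had any, while in the 19 cells of B6_E10.5 21 of 24 did. The Csf1r and Tyrobp of B6_E9.5 therefore came almost wholly from cells with Prtn3: 17 of 18 Csf1r and 87 of 93 Tyrobp UMIs of its cluster 3.

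Genes that went with C1qb were read in B6_E10.5 alone, as CPM in its 110 C1qb-positive and 597 C1qb-negative cells of cluster 3, with no test. C1qc had 1378 CPM in C1qb-positive cells and 0 in C1qb-negative cells. C1qa had 658 and 1.13 CPM, Csf1r 364 and 9.30 CPM (ratio 39.2, 28.1 to 55.8), Tyrobp 1500 and 79.4 CPM (18.9, 16.7 to 21.4) and Fcer1g 1282 and 83.7 CPM (15.3, 13.6 to 17.3). Pf4 had 145 CPM in C1qb-positive and 1226 CPM in C1qb-negative cells (ratio 0.118, 0.0969 to 0.143), although the share of cells with Pf4 was higher with C1qb. Itga2b had 2.66 and 51.3 CPM. Over all 9835 genes with enough UMIs, 7.85% were higher by 2-fold or more in C1qb-positive cells and 19.8% were lower by as much. The C1qb-positive cells held 752034 UMIs and the C1qb-negative ones 4408232. A gene could thus reach 20 UMIs at a lower level in the negative cells, and through the kind of cell in which it was high. These shares and the list counts that follow are a description only. Of 25 macrophage markers 24 were higher, as were 14 of 16 ITAM genes and 6 of 7 complement genes. These counts include members, such as C1qa and C1qc among the macrophage and complement genes. Among those named by size were the complement receptor genes C5ar1 (55 and 1 UMIs) and C3ar1 (145 and 3), Mrc1 (183 and 0) and the chemokine gene Ccl24 (461 and 0). All 12 endothelial markers were lower, the tight-junction gene Cldn5 with 1 UMI in C1qb-positive and 2024 in C1qb-negative cells, and so were 19 of 21 megakaryocyte markers.

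Set directly against each other in B6_E10.5, 108 cells with C1qb and no Itga2b and 50 cells with Itga2b and no C1qb differed in all the members that could be read. Their median depths were 5930 and 10150.5 UMIs. The 50 cells join 25 with Pf4 and Itga2b and 25 with Itga2b alone, whose endothelial markers summed to 522 and 3687 CPM. Their Tyrobp (36 UMIs) and Csf1r (4 UMIs) came only from the cells with Itga2b alone, and their Pf4 only from the others. Pf4 had 152 CPM in the C1qb cells and 9823 CPM in the Itga2b cells, a ratio of 0.0154 (0.0126 to 0.0186). Csf1r had 378 and 7.42 CPM (ratio 50.9, 19.7 to 188) and Tyrobp 1538 and 66.8 CPM (23.0, 16.5 to 33.0). Fcer1g, shared by both kinds of cells, differed least, with 1296 and 293 CPM (4.42, 3.73 to 5.26). Of 4950 genes with enough UMIs 12.4% were higher by 2-fold or more in the C1qb cells and 13.8% lower. All 24 macrophage markers read were higher, and all 20 megakaryocyte and all 11 endothelial markers lower, members included. A gene could have enough UMIs through the kind of cell in which it was high, so these counts are a description only.

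Genes that went with Itga2b could be tested over the 3 libraries, with raw UMIs summed per library over 52, 18 and 44 Itga2b-positive and 655, 440 and 806 Itga2b-negative cells and the library as a block (edgeR's quasi-likelihood test, Benjamini-Hochberg adjustment over all 9469 genes). The positive cells were deeper, with median UMIs of 10390.5, 7423.5 and 18464.5 against 5976, 7383 and 6705.5, and both kinds of cells came from the same 3 libraries. Of the positive cells, 25, 7 and 4 also had Pf4, and 25, 11 and 40 had neither Pf4 nor C1qb. Tyrobp had 0 UMIs in the positive cells with Pf4 in every library. Pf4 rose the most of all genes named. It had 9265, 5999 and 1890 CPM in Itga2b-positive cells of B6_E10.5, 129_E9.5 and B6_E9.5, against 47.7, 0.847 and 0.797 CPM in Itga2b-negative cells, a log2 fold change of 9.10 (SE 0.52, adjusted p = 6.61e-08, higher in 3 of 3 libraries). Fcer1g also rose, with 333, 228 and 113 CPM against 249, 10.7 and 11.6 CPM and a log2 fold change of 2.19 (SE 0.50, adjusted p = 0.0262, higher in 3 of 3). That call was lost with DESeq2 (adjusted p = 0.131) and without the library block (adjusted p = 0.999). Tyrobp did not pass the test (log2 fold change −1.11, SE 0.35, adjusted p = 0.137), with 102, 0 and 15.4 CPM in Itga2b-positive cells against 309, 0 and 10.9 CPM. It passed as lower with no filter on low counts (−1.11, adjusted p = 0.00106), without 129_E9.5 (−1.06, adjusted p = 0.00269) and without B6_E9.5 (−1.52, adjusted p = 6.45e-07), while it was 0.48 without B6_E10.5 and 0.33 with DESeq2, neither of which passed. The C1q genes and Csf1r were too low for this test.

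In this comparison 274 genes rose (2.89%) and 25 fell (0.264%). A gene could pass the filter on low counts through its level in the positive cells alone. Of 22 megakaryocyte markers with a row, 14 passed it. The balance of rises and falls and the counts of list members are thus a description only and support nothing. Of 14 megakaryocyte markers tested 13 rose (median log2 fold change 5.76, against −0.05 over all genes), led after Pf4 by Gp9 (8.66), the transcription factor genes Gfi1b (7.99) and Gata1 (7.33), Thbs1 (7.80) and Itgb3 (7.66). Of 9 platelet integrin and granule genes 8 rose, Pf4 among them. Gucy1a1 (8.42), Gnaz (7.94), Mfsd2b (7.84), Mrvi1 (7.54) and Grap2 (7.47) completed the largest rises, with Ache, which had 21, 5 and 5 UMIs in Itga2b-positive cells of B6_E10.5, 129_E9.5 and B6_E9.5 and 0 in the others. Fermt3, which encodes the kindlin that activates integrins in blood cells, rose by 4.70. Of 9 ITAM genes 6 rose: Fcer1g, Syk, Plcg2, Vav1, Btk and Lcp2, most of them parts of the signal chain downstream of glycoprotein VI. The gene of that receptor, Gp6, was not tested, with 50 UMIs in cluster 3 of B6_E10.5 and 0 in that of 129_E9.5 and B6_E9.5. Of 9 macrophage markers 3 rose (Fcer1g, Laptm5 and Coro1a) and Stab1 fell. Of 12 endothelial markers only Egfl7 fell (log2 fold change −0.42), a call lost without any of the 3 libraries in turn. Endothelial markers summed to 522, 574 and 387 CPM in the positive cells with Pf4, in B6_E10.5, 129_E9.5 and B6_E9.5. In the positive cells with neither Pf4 nor C1qb they summed to 3687, 4344 and 4052 CPM. The part of this mix in the calls was not tested. The 6 largest falls were those of Lgmn (−1.97), Lpl (−1.77), Ldhb (−1.42), Crabp2 (−1.09), Glul (−1.02) and Anxa6 (−0.94), and without B6_E10.5 all of these calls but that of Glul were lost. The progenitor genes Runx1, Lyl1 and Adgrg1 rose and Cd34 fell. Of 8 genes of the CSF1 receptor pathway 1 rose, Runx1, and the complement gene tested, Cd93, did not pass. The counts leaned on single libraries: without B6_E10.5 138 rose and 7 fell, without 129_E9.5 353 and 66, and without B6_E9.5 465 and 312. Without B6_E10.5 the calls of Clec1b, Cd34, Stab1, Lyl1, Plcg2 and Syk were lost, and that of Cd34 also without 129_E9.5. With DESeq2 the falls of Lgmn, Lpl, Ldhb, Crabp2, Egfl7, Cd34 and Stab1 did not pass (adjusted p between 0.0805 for Lgmn and 0.343 for Egfl7).

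Genes that went with Pf4 were tested in the same way, with 68, 10 and 10 Pf4-positive and 639, 448 and 840 Pf4-negative cells, at median depths of 8504, 10803.5 and 16579.5 against 6159, 7348.5 and 7039 UMIs. Itga2b rose, with 304, 392 and 347 CPM in Pf4-positive cells of B6_E10.5, 129_E9.5 and B6_E9.5 against 7.96, 3.07 and 5.19 CPM in Pf4-negative cells, a log2 fold change of 5.98 (SE 0.25, adjusted p = 4.05e-42). Fcer1g rose by 4.22 (SE 0.26, adjusted p = 2.95e-28), with 810, 455 and 491 CPM against 182, 6.14 and 11.5 CPM. That call was lost without the library block (adjusted p = 0.115). Tyrobp passed with a log2 fold change of 1.33 (SE 0.29, adjusted p = 0.000278), but its libraries did not go one way: 651, 0 and 0 CPM in Pf4-positive cells against 236, 0 and 11.5 CPM in Pf4-negative cells, and with DESeq2 the adjusted p was 0.957. The values of B6_E10.5 here join the cells with C1qb and those with Itga2b, whose Tyrobp levels were 1472 and 0 CPM.

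In the Pf4 comparison 652 of 9565 genes rose (6.82%) and 622 fell (6.5%). The same filter was used, so the counts of list members are a description only here too. All 14 megakaryocyte markers tested rose (median log2 fold change 6.35), Gp9 by 10.10, Thbs1 by 8.68 and Itgb3 by 8.62, and all 9 platelet integrin and granule genes did. Itga2b was in both lists. Of 11 macrophage markers 9 rose, Fcer1g and Tyrobp among them, with a smaller median of 1.66. Spi1 had 204, 62.4 and 13.1 CPM in Pf4-positive cells against 87.5, 5.58 and 4.82 CPM. Of 10 ITAM genes 8 rose and of 7 genes of the CSF1 receptor pathway 4 (Spi1, Runx1, Maf and Irf8). Of 12 endothelial markers 11 fell (median −1.36), Cldn5 by 1.98 and Emcn by 1.77 on the log2 scale, and Cd93, the complement gene tested, fell. The 6 genes of largest fall, Trim16, Mall, Prl3b1, Nav3, Ank2 and Rasd1, had 0 UMIs in Pf4-positive cells and no more than 27.3 CPM in Pf4-negative cells of any library. Without B6_E10.5, 378 rose and 280 fell, and the calls of Maf, Irf8, Lyn, Trim16, Mall, Prl3b1 and Nav3 were lost. Irf8 was also lost without 129_E9.5, as was Lyz2. With DESeq2 the calls of Maf (adjusted p = 0.0769), Irf8 (0.435), Lyn (0.080) and Lyz2 (0.153) were lost, as were those of Mall, Prl3b1, Nav3 and Ank2. With library totals in place of TMM those of Irf8 (0.107) and Lyz2 (0.0777) were lost, and with no filter on low counts that of Irf8 (0.0534).

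**Figure D5:**
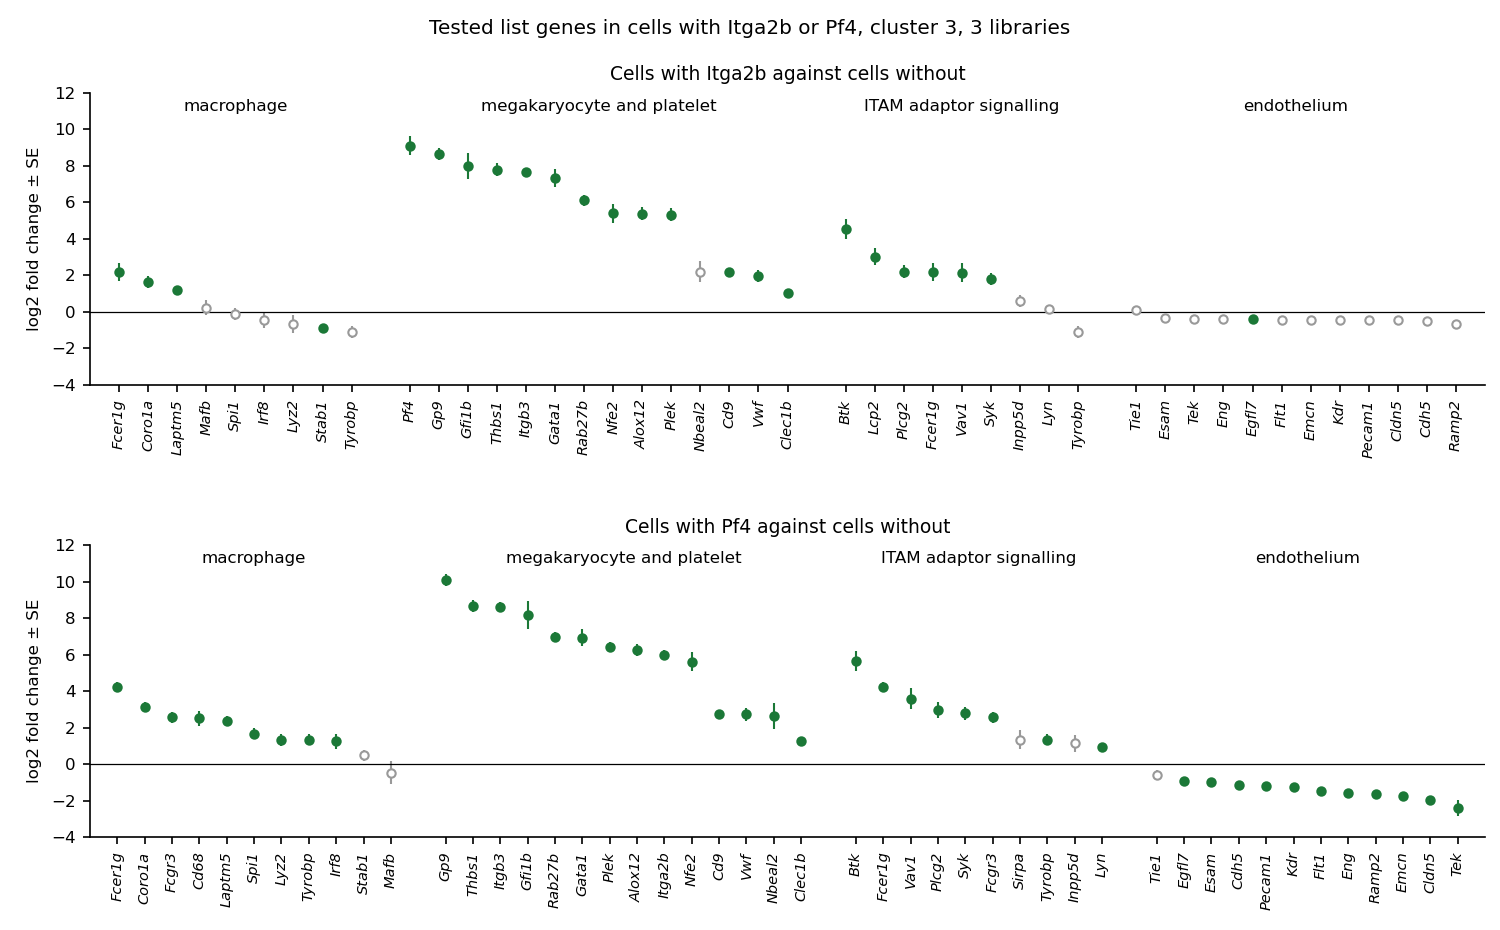
Log2 fold change of tested members and markers in Itga2b-positive over Itga2b-negative and Pf4-positive over Pf4-negative cells of cluster 3 (edgeR, 3 libraries as blocks). Bars are the SE derived from the F statistic of the test. Filled points have an adjusted p under 0.05 and open points do not. Most megakaryocyte markers lie far above 0 in both comparisons, Fcer1g at 2.19 and 4.22, and Tyrobp on opposite sides of 0.

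The genes whose detection was most like that of each member were ranked by the phi coefficient over cluster 3 cells, as a description without a test. For C1qb, over the cells of B6_E10.5 and 11025 genes, the nearest were C1qc (0.946), C1qa (0.831), Aif1 (0.806), Tyrobp (0.794), Ms4a6c (0.792), Maf (0.776), Ms4a6b (0.765) and Fcgr3 (0.756). Csf1r came at place 9 (0.755), Fcer1g at 25 (0.661) and Pf4 at 216 (0.310). For Pf4, averaged over the 3 libraries and 9764 genes, they were Itgb3 (0.522), Dok2 (0.510), Plek (0.496), Fermt3 (0.460), Tuba4a (0.460), Tspan32 (0.447), Was (0.436) and Runx1 (0.428), with Fcer1g at place 10 (0.413) and Itga2b at place 17 (0.349). For Itga2b, over as many genes, they were Itgb3 (0.446), Tuba4a (0.421), Rab27b (0.383), Tspan32 (0.371), Nrgn (0.362), Plek (0.356), Pf4 (0.349) and Prkcq (0.325), with Fcer1g at place 41 (0.201). Of these 8 neighbours of Itga2b, 4 were also among the 8 of Pf4 (Itgb3, Plek, Tspan32 and Tuba4a), and 0 were among those of C1qb. The count of 0 was largely set by the rule and is not a contrast. For Pf4 and Itga2b a gene was ranked only if found in at least 10 cluster 3 cells of each of the 3 libraries. C1qc, C1qa and Tyrobp, near C1qb in B6_E10.5, were thus left unranked. Cells of 1 library share their depth and preparation, and deeper cells hold more genes of any kind.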

How the data were processed

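Raw UMI counts per gene and cell were used as deposited by the authors in 1 matrix that joins the libraries, not normalized. Per the submitters' processing notes, Cell Ranger 3 and the build mm10 were used. The authors' table of cells gave stage, strain and cluster, and the sources used here do not say how clusters were made. Gene symbols were matched by Ensembl identifier (15119 of 15122). Cells held 501 to 38723 UMIs, libraries 93029510 to 124388358. No cell was filtered, and doublets were not called; cells over 16000 UMIs were left out as an alternative. There were 0 unused sample columns.

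UMIs were summed per cluster and library and divided by the sum (CPM). Intervals were exact Poisson, Clopper-Pearson or conditional binomial, at 95%. Ratios used genes with at least 20 UMIs in the higher group, and a count of 0 was set to 3. Positive and negative cells (10 or more of both per library) were compared with edgeR 4.0.16 (R 4.3.3; filterByExpr, TMM, library as a block) and, as an alternative, DESeq2 1.42.0; the code was tested on simulated data. For C1qb only 1 library had such cells, so ratios replaced the test. An adjusted p under 0.05 was called. The SE given with edgeR values is the absolute log2 fold change divided by the square root of the quasi-likelihood F statistic. The block removes differences in level between libraries. The p-values thus measure how alike the difference between positive and negative cells was over these libraries, which differ in stage and strain. Numbers of embryos are not given, so they do not measure the spread between embryos. Other steps used Python 3.11.15, numpy 2.4.6, scipy 1.17.1, pandas 2.3.3 and matplotlib 3.10.9.

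Named genes were the 8 members, the 12 highest and 6 lowest changes with 1 direction in all libraries, up to 4 members of each list with most UMIs, and the 8 nearest by phi; other names from the lists were chosen after their values were seen. Members and lists were chosen with earlier results of these data known. Of the lists, Timd4, Folr2, Tubb1, Selp, Elane, S100a8, S100a9, Cpa3, Ctsg, Cebpe, Cma1, C1ra, C3, Cfd and Il34 were not analysed here.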

Additional observations from a re-analysis of the deposited data

Results flagged for a closer look

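Some members had more UMIs outside cluster 3 than the limit of 3 that a count of 0 allows, in clusters the comparisons did not use. Fcer1g had 324 UMIs in 315 of the 15325 mesenchyme-like cells of cluster 0 in B6_E10.5 (3.57 CPM, 2.06% of cells) and 95 UMIs in 94 cells of cluster 0 in B6_E9.5 (0.965 CPM), while it had 12 UMIs (0.171 CPM) in cluster 0 of 129_E9.5. Tyrobp had 34, 0 and 1 UMIs in cluster 0 of B6_E10.5, 129_E9.5 and B6_E9.5, so the 2 adaptors did not keep the same ratio there as in cluster 3.

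Itga2b had 33, 53 and 42 UMIs in the erythroid-like cluster 4 of B6_E10.5, 129_E9.5 and B6_E9.5, in 8.23%, 8.11% and 3.58% of its cells, beside 3, 0 and 0 Pf4 UMIs in the whole cluster. The Itga2b-positive cells of cluster 4 had median depths of 17896, 12275 and 24951.5 UMIs, against 13871, 12003 and 726 UMIs in the negative ones. Their megakaryocyte markers summed to 178, 194 and 209 CPM, against 163, 204 and 169 CPM. Itga2b also had 49 UMIs in cluster 0 of B6_E10.5 and 21 in that of B6_E9.5.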

How the results depend on the processing

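Leaving out cells over 16000 UMIs moved the summed level of the 6 macrophage genes in cluster 3 to 1404 CPM in B6_E10.5 and 38.4 CPM in B6_E9.5, from 1240 and 33.8 CPM. With no minimum of UMIs, 2 members in place of 1 were at least 2-fold lower in 129_E9.5 than in B6_E9.5. Thinning to 2000 UMIs moved the odds ratio of Pf4 with C1qb to 3.83, and that of Pf4 with Itga2b to 37.5 in B6_E10.5 and 84.0 in B6_E9.5. Asking for 2 UMIs made the odds ratio of Pf4 with Itga2b 135 in B6_E10.5 and unbounded in 129_E9.5 and B6_E9.5, with lower limits of 185 and 75.2. With cells of at most 16000 UMIs it was 14.7 in B6_E10.5, 104 in 129_E9.5 and 8.50 in B6_E9.5. The interval of the last, 0.164 to 92.7, spanned 1. The genes that rose with Itga2b numbered 415 with no filter, 108 without the library block and 138 to 465 without 1 library; those that fell 8 with DESeq2, 239 with no filter, 0 without the block (596 genes at an unadjusted p under 0.05), 56 under 16000 UMIs and 7 to 312 without 1 library. The genes that rose with Pf4 numbered 332 without the block and 378 to 669 without 1 library, and those that fell 223 with DESeq2, 138 without the block and 280 to 618 without 1 library. Tyrobp changed sign with Itga2b, to 0.33 with DESeq2 and, without 1 library, a range of −1.52 to 0.48, 0.48 being the value without B6_E10.5; its fall passed with no filter (adjusted p = 0.00106), without 129_E9.5 (0.00269) and without B6_E9.5 (6.45e-07). The causes were not tested. Of the other member values, 31 of 190 moved by over 1.5-fold. No test could be made with thinned cells or with 2 UMIs, or for Pf4 under 16000 UMIs, since fewer than 2 libraries kept 10 positive cells. No paired analysis was possible between the groups because each has 1 library; the cell comparisons above kept the library as a block.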
